A study of Mus musculus with 6 samples.

Results

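The genes described here are 35 genes of the synapse, taken by symbol from the 24444 in the deposited table: 24 presynaptic genes of the synaptic vesicle, its fusion, the active zone and endocytosis, 6 postsynaptic scaffold genes, and 5 neurexins and neuroligins. All 35 symbols were found, and all 35 passed the filter on low values. Poly(A) RNA had been sequenced from the telencephalon, the front part of the forebrain, of C57BL/6J mouse embryos at E12.5. The groups are 3 libraries labelled wild-type and 3 labelled Arl13b-/-, mutants of the gene for Arl13b, a GTPase of the primary cilium. The labels name no other allele or treatment, and do not say whether a library is from 1 embryo or a pool, and each p-value therefore rests on the spread among libraries that may be technical repeats. The question is whether transcripts of the synapse differ in the mutant telencephalon.

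Neurons pass signals at synapses, where vesicles filled with transmitter fuse with the membrane of the axon terminal. A complex of SNARE proteins drives fusion, synaptotagmins sense the calcium that starts it, active zone proteins hold vesicles ready at the release site, and dynamin and its partners recover the membrane. On the far side, scaffold proteins anchor receptors, and presynaptic neurexins bind postsynaptic neuroligins across the cleft. In the embryonic telencephalon most cells are still dividing radial glia. Young neurons begin to make many of these transcripts before they have formed synapses.

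Wild-type 1 and Arl13b-/- 2 stood apart from the other 4 libraries, so each result is given with and without them. Across genes, which are not independent replicates, Pearson's r was between 0.985 and 0.995 among the 4, between 0.880 and 0.898 for wild-type 1 with them, and between 0.702 and 0.722 for Arl13b-/- 2 with them. Depth was estimated at between 27600000 and 51700000 reads. Normalized counts summed to 36200000 in Arl13b-/- 2 and to between 27500000 and 29200000 in the other libraries. Folds of Arl13b-/- 2 in normalized counts are therefore larger than folds in shares of the total. Arl13b itself had 553 to 661 normalized counts with the wild-type label and 492 to 564 with the Arl13b-/- label (limma adjusted p = 0.990), and a value for a whole gene does not check the mutation. The Y-linked gene Ddx3y had 1093 and 1258 normalized counts for wild-type 2 and 3 and at most 1.23 in the other libraries. Xist, made from the inactive X chromosome of females, had 15101, 26.5 and 213 across wild-type 1 to 3 and 16292, 244 and 19017 across Arl13b-/- 1 to 3, so Arl13b-/- 2 was low in both transcripts. Among the other 4 libraries, both wild-type had Ddx3y and both Arl13b-/- had high Xist, so sex and genotype cannot be told apart in the smaller comparison. The 20 pan-neuronal markers, Tubb3 first among them, summed to 553518, 261901 and 262243 normalized counts across wild-type 1 to 3 and to 277630, 1221740 and 271011 across Arl13b-/- 1 to 3. The 24 cell cycle markers summed to 35091 in wild-type 1 and 5042 in Arl13b-/- 2, against 138105 to 160549 in the other 4, and all 24 were at least 1 lower on the log2 scale in both. The 12 radial glial markers summed to 54656 in wild-type 1 and 11576 in Arl13b-/- 2, against 119819 to 148946. Of these 12, 9 were at least 1 lower in wild-type 1 and 11 in Arl13b-/- 2. Slc1a3 was at least 1 higher in wild-type 1, and Ddah1 in Arl13b-/- 2. The labels give all 6 libraries the same tissue and age; whether these 2 differ in stage, tissue or dissection was not tested, and every 6-library difference and every fold given for them rests on libraries that may not be comparable with the other 4. In bulk tissue, fewer cells of a type and less RNA per cell cannot be told apart.

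Wild-type 1 and Arl13b-/- 2 held more synaptic transcript than the other libraries, Arl13b-/- 2 the most. The mean variance-stabilised value of the 35 genes, on a log2 scale, was 11.93, 10.43 and 10.49 across wild-type 1 to 3 and 10.47, 12.97 and 10.47 across Arl13b-/- 1 to 3. The wild-type libraries averaged 10.95 ± 0.85 (SD, n = 3). Those of Arl13b-/- averaged 11.30 ± 1.44 (SD, n = 3). The other 4 libraries spanned 10.43 to 10.49, and both genotypes lay within that range. The share of all normalized counts taken by the 35 genes was 0.648% in wild-type 1 and 1.33% in Arl13b-/- 2, and 0.275% to 0.283% in the other 4.

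**Figure D1:**
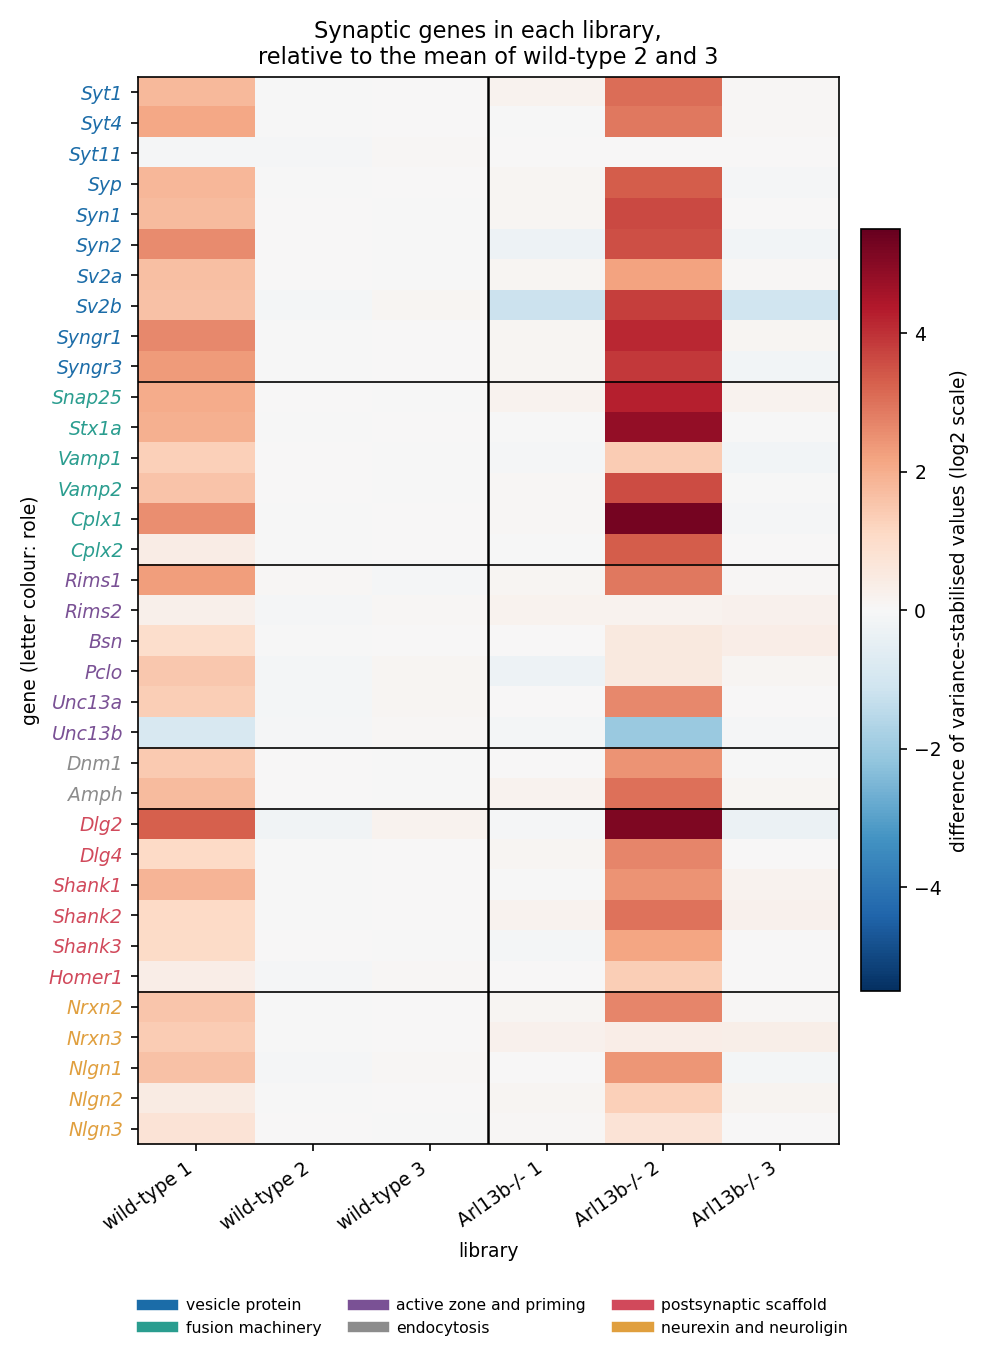
Variance-stabilised value (log2 scale) of each of the 35 genes in each library, minus the mean of wild-type 2 and 3; rows are genes in order of role and columns are the 6 libraries. Wild-type 1 and Arl13b-/- 2 are the only columns with strong colour, except for Sv2b, which is also low in Arl13b-/- 1 and 3; Syt11 is flat and Unc13b is low in the same 2 columns.

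Among proteins of the vesicle, 9 of 10 genes were at least 1 higher on the log2 scale in both wild-type 1 and Arl13b-/- 2. Each library was set against the rest of its genotype, and both held for 9.26% of all 14249 genes kept. Syt1, the calcium sensor of fast release, had 7513, 2112 and 2160 normalized counts across wild-type 1 to 3 and 2421, 18616 and 2267 across Arl13b-/- 1 to 3. Syp, which encodes the vesicle membrane protein synaptophysin, had 7702, 2090 and 2190, and 2343, 21945 and 2053. Syn1, a synapsin that tethers vesicles to each other, had 5789, 1737 and 1671, and 1864, 21897 and 1756. In all 3, wild-type 1 and Arl13b-/- 2 were high, the other 4 libraries lay close together, and the genotypes overlapped. Against the mean of wild-type 2 and 3, wild-type 1 was 3.52-fold higher for Syt1, 3.60-fold for Syp and 3.40-fold for Syn1. Against the mean of Arl13b-/- 1 and 3, Arl13b-/- 2 was 7.94-fold, 9.98-fold and 12.1-fold higher. Each of these folds sets 1 library against 2 and has no test.

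Syn2, the second synapsin of the set, had 2705, 389 and 383 normalized counts across wild-type 1 to 3 and 303, 5241 and 336 across Arl13b-/- 1 to 3. Sv2b, a vesicle transporter-like protein, had 894, 226 and 275, and 79.0, 4298 and 86.9. Both genes were lower in Arl13b-/- 1 and 3 than in each wild-type library, which no other vesicle gene was. The fold of Arl13b-/- 2 over the mean of Arl13b-/- 1 and 3 was 51.8 for Sv2b and 4.53 for its relative Sv2a. Syngr1 and Syngr3, synaptogyrins of the vesicle membrane, were 6.74-fold and 5.70-fold higher in wild-type 1 and 17.9-fold and 17.0-fold higher in Arl13b-/- 2. Syt4, a synaptotagmin that does not bind calcium in the usual way, was 4.45-fold and 7.54-fold higher. Syt11, another such synaptotagmin, was the exception, with 11508, 11515 and 12324 normalized counts across wild-type 1 to 3 and 12039, 12199 and 12127 across Arl13b-/- 1 to 3. In normalized counts all 6 libraries lay close together for Syt11, though Arl13b-/- 2 had the largest total.

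The stretch before the start site is shown for 4 genes with different patterns: Syn1, high in both libraries that stood apart, Sv2b, also low in Arl13b-/- 1 and 3, Syt11, level in all libraries, and Unc13b, low in both. RefSeq windows on GRCm38.p6 were matched by symbol for 26 of the 35 genes, 39 windows in all. Each line gives the 250 bases before the first listed start, 5′ to 3′ on the gene's strand, from chrX:20920919-20921168 (minus strand), chr7:75309263-75309512 (minus), chr3:88772600-88772849 (minus) and chr4:43058703-43058952 (plus), where Sv2b has 4 listed windows and the others 1. Capitals mark a match, on either strand, to the left part of RE1, the element bound by the neuronal repressor REST (TTCAGCACC), to the cAMP response element (TGACGTCA), or to a GC box (GGGCGG).
Syn1: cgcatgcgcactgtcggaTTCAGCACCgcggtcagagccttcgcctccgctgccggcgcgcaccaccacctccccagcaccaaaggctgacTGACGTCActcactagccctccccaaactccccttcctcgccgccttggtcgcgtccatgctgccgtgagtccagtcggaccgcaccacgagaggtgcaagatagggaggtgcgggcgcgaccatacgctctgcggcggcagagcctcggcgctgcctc
Sv2b: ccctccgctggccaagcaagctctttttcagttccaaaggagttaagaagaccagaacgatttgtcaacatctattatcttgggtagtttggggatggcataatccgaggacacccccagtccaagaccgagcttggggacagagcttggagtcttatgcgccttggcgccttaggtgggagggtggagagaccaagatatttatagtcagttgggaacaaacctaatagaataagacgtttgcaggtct
Syt11: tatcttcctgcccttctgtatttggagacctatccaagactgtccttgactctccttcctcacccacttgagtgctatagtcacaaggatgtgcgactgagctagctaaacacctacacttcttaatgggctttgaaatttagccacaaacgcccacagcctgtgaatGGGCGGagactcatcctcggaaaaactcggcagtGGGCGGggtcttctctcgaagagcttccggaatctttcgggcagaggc
Unc13b: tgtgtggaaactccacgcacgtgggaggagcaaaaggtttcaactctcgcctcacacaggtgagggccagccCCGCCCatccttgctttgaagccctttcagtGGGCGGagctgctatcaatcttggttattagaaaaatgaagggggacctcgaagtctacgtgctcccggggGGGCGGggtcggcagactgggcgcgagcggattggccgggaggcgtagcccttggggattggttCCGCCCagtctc

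The Syn1 window held both the RE1 letters, first base 232 bases before the start, and the cAMP response element, 159 bases before it. The RE1 letters were in 2 of the 39 windows, those of Syn1 and Nlgn1, and in 0.301% of 32851 windows of all genes. The cAMP response element was in 1 of 39 windows and in 1.55% of all. The GC box was in 16 of 39, or 41.0%, Syt11 and Unc13b among them, and in 32.7% of all. The Sv2b window held none of the motifs, and no matches of different motifs overlapped in the windows shown. A match is a description of the sequence, and no binding was measured.

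The fusion genes had the largest median of the 6 roles in Arl13b-/- 2, with a difference of 3.83 on the log2 scale from Arl13b-/- 1 and 3. Snap25, a SNARE protein of the axon terminal membrane, had 4962, 1157 and 1122 normalized counts across wild-type 1 to 3 and 1320, 23577 and 1295 across Arl13b-/- 1 to 3. Wild-type 1 was thus 4.36-fold and Arl13b-/- 2 18.0-fold above the rest of their genotypes. Stx1a, the syntaxin that pairs with Snap25, was 4.23-fold and 32.1-fold higher, and Vamp2, the SNARE protein of the vesicle, 3.03-fold and 12.0-fold. Vamp1, its relative, had few counts: 226, 57.6 and 56.4, and 52.8, 238 and 47.4. For Vamp1 the 2 high libraries were nearly equal.

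The 2 complexins, which bind the SNARE complex and control vesicle fusion, differed from each other. Cplx2 had 9513, 6935 and 7350 normalized counts across wild-type 1 to 3 and 7110, 71960 and 7260 across Arl13b-/- 1 to 3. Wild-type 1 was 1.33-fold and Arl13b-/- 2 10.0-fold above the rest of their genotypes for Cplx2. For Cplx1 the folds were 6.70 and 44.0. Cplx2 was thus high in Arl13b-/- 2 but close to the rest in wild-type 1, while Cplx1 was high in both.

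Active zone and priming genes were mixed: 3 of 6 were at least 1 higher in wild-type 1 and 2 of 6 in Arl13b-/- 2, against 12.2% and 21.0% of all 14249 genes kept. Their median difference was 1.15 in wild-type 1 and 0.49 in Arl13b-/- 2. Pclo, a large scaffold of the active zone, had 3124, 1008 and 1167 normalized counts across wild-type 1 to 3 and 887, 1597 and 1163 across Arl13b-/- 1 to 3. Rims2, which links vesicles to calcium channels, had 1930, 1485 and 1630, and 1789, 1788 and 1824. Unc13b, which encodes the priming factor Munc13-2, had 1842, 3310 and 3534, and 3147, 792 and 3277. Pclo was highest in wild-type 1, Rims2 differed little between libraries, and Unc13b was lowest in the 2 libraries where most other genes were highest. Unc13a, the gene of Munc13-1, was 2.61-fold and 6.32-fold higher there, the opposite direction to Unc13b at 0.538 and 0.246 times the rest. Rims1, the other RIM, was 6.17-fold and 9.05-fold higher, and Bsn, the scaffold Bassoon, 1.96-fold and 1.28-fold.

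Both endocytosis genes were high in the same libraries as the vesicle genes. Dnm1, the neuronal dynamin that pinches off membrane, had 5714, 2064 and 2016 normalized counts across wild-type 1 to 3 and 2069, 11576 and 2035 across Arl13b-/- 1 to 3. Amph, amphiphysin, which brings dynamin to the membrane, had 3115, 916 and 880, and 1021, 7894 and 977. Amph was lowest in the 2 wild-type libraries 2 and 3.

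Postsynaptic scaffold genes were high in the same libraries. All 6 were at least 1 higher on the log2 scale in Arl13b-/- 2, against 21.0% of all genes. Dlg2, the scaffold PSD-93, had 4348, 329 and 456 normalized counts across wild-type 1 to 3 and 366, 15922 and 293 across Arl13b-/- 1 to 3. Dlg4, its relative PSD-95, had 10262, 4575 and 4826, and 5020, 30607 and 4770. Wild-type 1 was 11.1-fold above the rest of its genotype for Dlg2 and 2.18-fold for Dlg4, and Arl13b-/- 2 was 48.4-fold and 6.25-fold above. Shank2, a scaffold that joins other scaffolds, had 2108, 911 and 964, and 1068, 7864 and 1130. Homer1, which ties glutamate receptors to Shank proteins, had 1703, 1238 and 1370, and 1331, 3437 and 1335. Homer1 moved least of the 6 in both libraries. Shank1 was 3.75-fold and 5.20-fold higher, and Shank3 2.15-fold and 4.87-fold.

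Neurexins and neuroligins were less uniform. Nrxn2 had 17845, 6069 and 6367 normalized counts across wild-type 1 to 3 and 6643, 39994 and 6434 across Arl13b-/- 1 to 3. Nrxn3 had 2660, 941 and 974, and 1143, 1236 and 1222. The 2 neurexins thus parted in Arl13b-/- 2, where Nrxn2 was 6.12-fold higher than in Arl13b-/- 1 and 3 and Nrxn3 1.05-fold, while in wild-type 1 they were 2.87-fold and 2.78-fold higher. Nlgn1, the neuroligin of excitatory synapses, had 2005, 580 and 644, and 621, 3546 and 566. Nlgn2, that of inhibitory synapses, had 9630, 6868 and 7265, and 7519, 17504 and 7791. Nlgn3, found at both kinds, was 1.72-fold and 1.61-fold higher. Nlgn1 was thus high in both libraries, and Nlgn2 and Nlgn3 less so.

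Counted over the set, 27 of 35 genes were at least 1 higher on the log2 scale in wild-type 1 than in wild-type 2 and 3, against 12.2% of all 14249 genes kept. In Arl13b-/- 2 the count was 28 of 35 against Arl13b-/- 1 and 3, where 21.0% of all genes passed. Both held for 25 of 35 genes and for 9.26% of all. Unc13b in Arl13b-/- 2 was the only gene of the set at least 1 lower, against 25.6% of all genes in that library. By class, 18 of 24 presynaptic, 5 of 6 scaffold and 2 of 5 neurexin and neuroligin genes were at least 1 higher in both libraries. These counts describe 2 libraries and have no test.

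**Figure D2:**
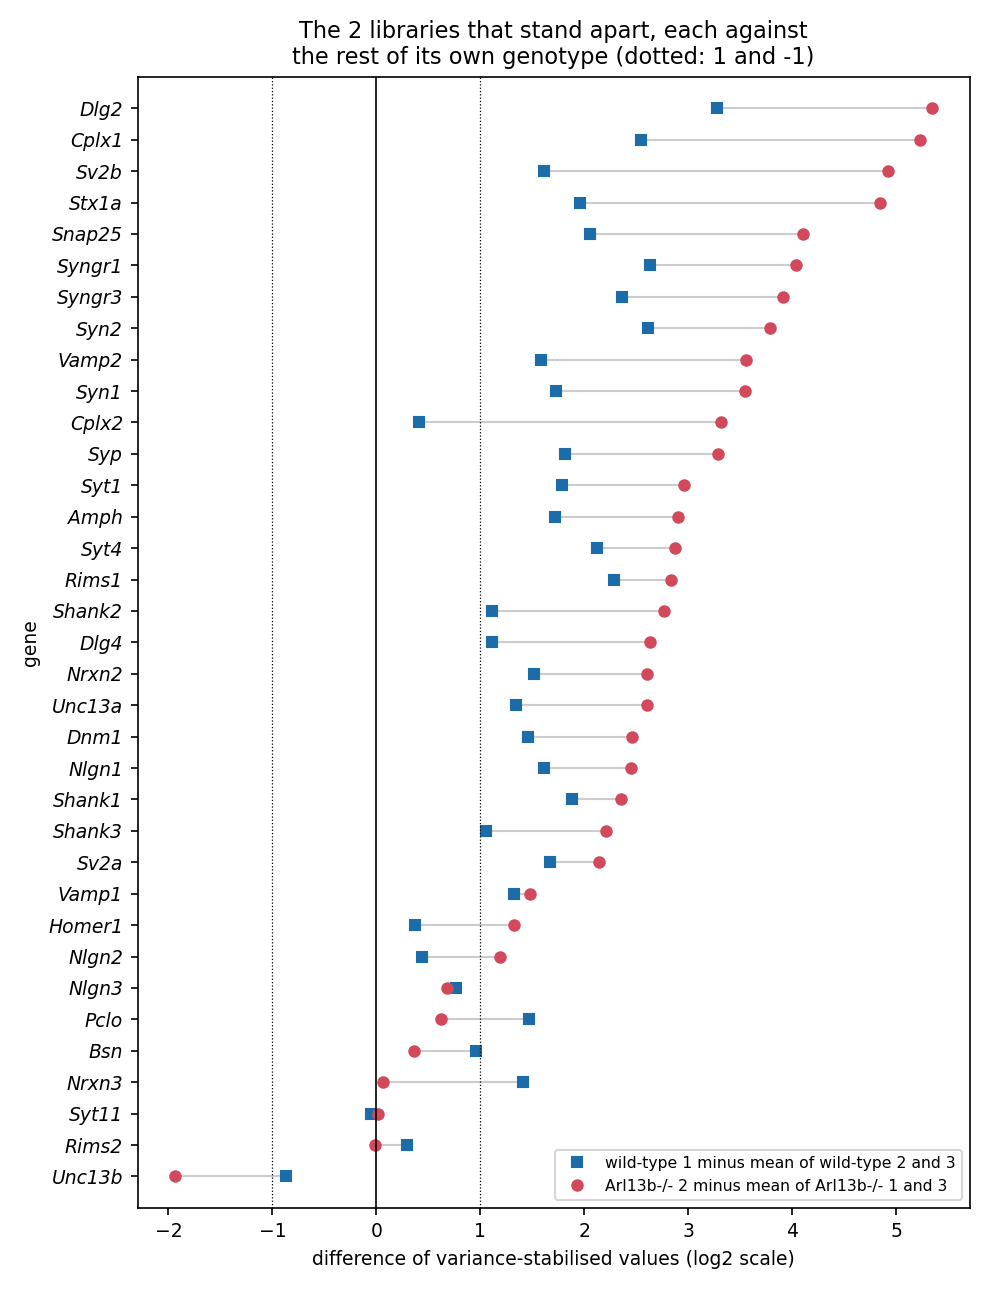
Difference in variance-stabilised value (log2 scale) of wild-type 1 from the mean of wild-type 2 and 3 (squares) and of Arl13b-/- 2 from the mean of Arl13b-/- 1 and 3 (circles) for each gene, in order of the circles. Dlg2 and Cplx1 differ most in Arl13b-/- 2 (5.34 and 5.23), Cplx2 and Nrxn3 differ mainly in 1 of the 2 libraries, and Unc13b lies below 0 in both.

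Neuronal markers were also high in these 2 libraries, and their part in the synaptic values was not tested. Of the 20 pan-neuronal markers, 12 were at least 1 higher in wild-type 1 and 14 in Arl13b-/- 2, and none at least 1 lower. The mean of the list was higher by 1.25 in wild-type 1 and by 2.18 in Arl13b-/- 2. Each library was then centred on that list. After centring, 6 of the 35 synaptic genes remained at least 1 higher in wild-type 1 and 12 in Arl13b-/- 2. Of these, 5 and 11 were presynaptic, as were 24 of the 35. The share of all genes was not computed with this centring, so these counts cannot be read as particular to the synaptic genes. Relative to that list, fusion genes had a median of 0.52 in wild-type 1 and 1.65 in Arl13b-/- 2, and active zone genes −0.10 and −1.69. Scaffold genes had −0.14 and 0.31, and neurexins and neuroligins 0.16 and −0.99. Vesicle genes had 0.55 and 1.24. In Arl13b-/- 2, the medians of vesicle and fusion genes thus differed from the rest of the genotype by more than the neuronal markers did, and 4 of 6 active zone genes by less; differences between roles were not tested.

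Marker lists of other cells summed lower in Arl13b-/- 2 than in each other library, while wild-type 1 was not uniform. Surface ectoderm genes summed to 19198 normalized counts for wild-type 1 and 214 for Arl13b-/- 2, against 4624 and 2081 in wild-type 2 and 3 and 875 and 300 in Arl13b-/- 1 and 3. Its first marker, Krt5, was listed at 0 in Arl13b-/- 2, as were Krt8, Krt15 and Cdh1. Of the 12 markers, 4 were at least 1 lower on the log2 scale in Arl13b-/- 2 and 1 at least 1 higher. In wild-type 1, 8 were at least 1 higher and 0 lower. Red blood cell genes summed to 13712 in wild-type 1 and 122 in Arl13b-/- 2, against 60140 to 301857 in the other 4. Hbb-y was listed at 0 in Arl13b-/- 2. This list was split in wild-type 1, where 5 of 9 markers were at least 1 lower on the log2 scale and 3 at least 1 higher. All 9 were at least 1 lower in Arl13b-/- 2. Mesenchyme genes summed to 26501 and 463, against 27352 to 72676, and microglial and endothelial genes to 9588 and 669, against 7293 to 9624. For microglial and endothelial genes, wild-type 1 thus lay within the range of the other 4. Astrocyte and oligodendrocyte genes summed to 13193 and 4461, against 8750 to 9426. Of these 14 markers, 4 were at least 1 higher in wild-type 1 and 0 lower. In Arl13b-/- 2 this list was split, with 2 at least 1 higher and 3 lower. Genes of peripheral neurons summed to 2027 and 374, against 2759 to 3435. Of these 10 markers, 0 were at least 1 higher in wild-type 1 and 1 lower. In Arl13b-/- 2, 6 were at least 1 lower and 1 higher, Prph, which had 324 of the counts there.

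**Figure D3:**
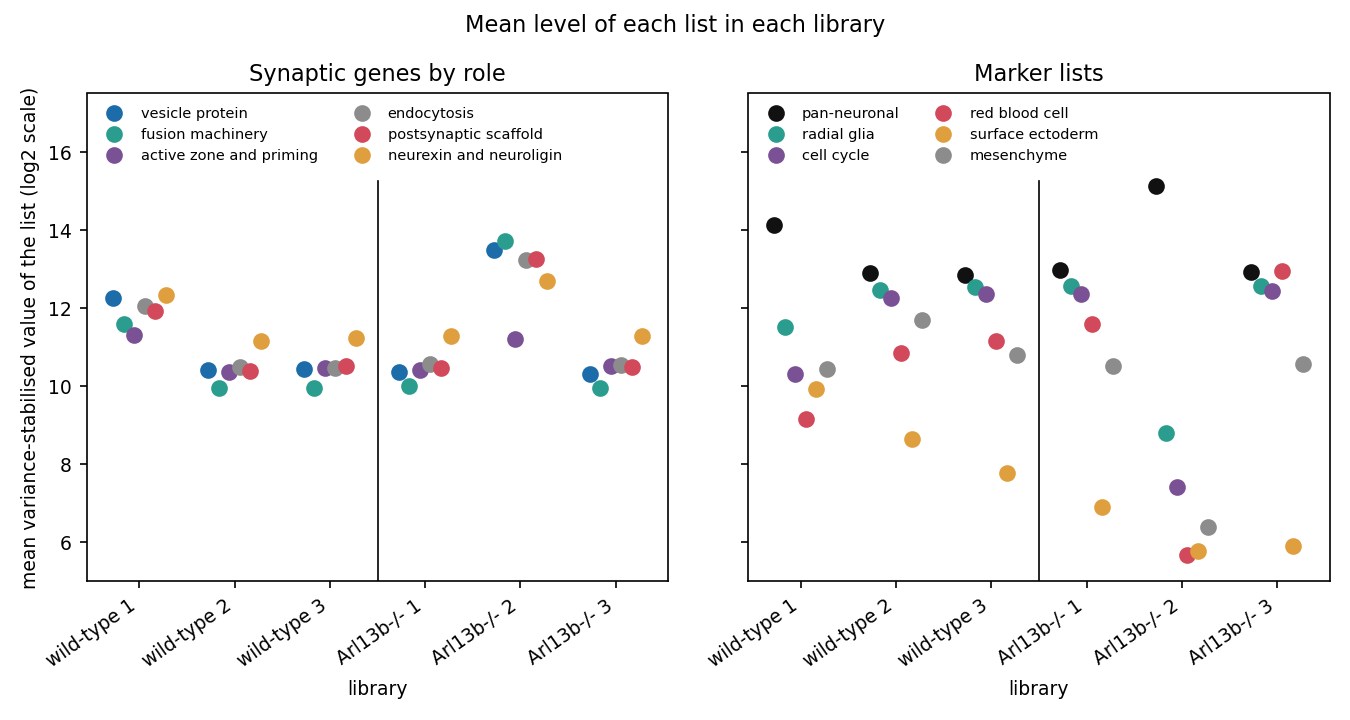
Mean variance-stabilised value (log2 scale) of the synaptic genes by role (left) and of 6 marker lists (right) in each of the 6 libraries; each point is 1 list in 1 library. Fusion genes go from 9.95 in wild-type 2 to 11.60 in wild-type 1 and 13.72 in Arl13b-/- 2, and active zone genes are at 11.33 and 11.21 in those 2 libraries.

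Over all 6 libraries, no synaptic gene passed the test between genotypes. The fitted difference, Arl13b-/- minus wild-type, was above 0 for 29 of 35 genes and below 0 for 6, with a median of 0.36 against 0.003 for all 14249 genes. Over all genes, 7159 were above 0 and 7090 below. Its standard error had a median of 0.85 for the 35 genes and 0.35 for all genes. Cplx2 had the smallest p, with a difference of 0.98 ± 0.94 (SE), and Snap25 differed by 0.87 ± 1.28. Among the other genes of each role with the smallest p, Syn1 differed by 0.69 ± 1.10, Shank2 by 0.77 ± 0.84, Amph by 0.54 ± 0.95, Nlgn2 by 0.36 ± 0.38 and Pclo by −0.37 ± 0.48. The difference was 0.52 ± 0.97 for Syt1, 0.52 ± 1.05 for Syp, 0.56 ± 0.81 for Dlg4, 0.24 ± 0.83 for Nlgn1 and −0.16 ± 0.42 for Nrxn3. The adjusted p was at least 0.990 for each in limma, with 0 of 35 genes past 0.05, as for 0% of all genes. An unadjusted p under 0.05 was found for 0 of the 35 and for 163 genes in all. The 3 libraries of each genotype overlapped for all 35 genes, while 8.26% of all genes had groups that did not overlap. Without Arl13b-/- 2 the median difference was −0.48, with 32 of 35 below 0, and without wild-type 1 it was 0.93, with 34 of 35 above 0.

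By class, the median difference over 6 libraries was 0.40 for presynaptic genes, 0.42 for scaffold genes and 0.24 for neurexins and neuroligins. Centring on the pan-neuronal list took the median of the 35 genes to −0.027, with 16 above 0 and 19 below.

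In wild-type 2 and 3 against Arl13b-/- 1 and 3, Sv2b was lower and the other synaptic genes were close to equal. Sv2b fell by 1.13 on the log2 scale (SE 0.11, n = 2 per group; 95% interval −1.41 to −0.84; limma adjusted p = 0.0450). From the values above, its mean count was 250 in wild-type and 82.9 in Arl13b-/-, or 3.02-fold lower. It was the only gene of the 35 to pass, against 0.182% of all genes lower and 0.0702% higher, and 0 of 35 were higher. The call was near the threshold: the adjusted p was 0.329 with no filter on low values, 0.0755 without the mean-variance trend, 0.141 without wild-type 2 and 0.133 without wild-type 3. With libraries centred on the pan-neuronal list Sv2b differed by −1.20 (limma adjusted p = 0.0239). In the libraries left out, Sv2b ran the other way, at 894 in wild-type 1 and 4298 in Arl13b-/- 2.

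Markers of particular cell types also had different values in these 4 libraries. Neurod6, a transcription factor of excitatory cortical neurons, had 929 and 1357 normalized counts across wild-type 2 and 3 and 118 and 51.0 across Arl13b-/- 1 and 3. Slc17a7, the vesicular glutamate transporter of such neurons, had 217 and 290, and 69.2 and 33.9. Neurod6 passed the test (−3.08 ± 0.28, SE; limma adjusted p = 0.0354) and Slc17a7 did not (−1.55 ± 0.21; limma adjusted p = 0.0714). In the libraries left out, Neurod6 had 9277 in wild-type 1 and 2864 in Arl13b-/- 2, and Slc17a7 had 886 and 10532. Over 6 libraries Neurod6 differed by −2.61 ± 1.49 (limma adjusted p = 0.990) and Slc17a7 by 0.12 ± 1.90 (limma adjusted p = 0.998). Both were chosen after their values were seen, from no fixed list, and both were low in the same libraries as Sv2b. All 12 surface ectoderm markers had a difference below 0 (mean −1.82) and all 9 red blood cell markers one above 0 (mean 1.25), with 0 past the threshold in either list (limma), mesenchyme markers had a mean of −0.71, and the 20 pan-neuronal markers had a mean difference of 0.07. Their part in the Sv2b difference was not tested.

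The remaining synaptic genes differed by at most 0.29 in either direction in the 4 libraries. Nrxn3 came nearest the threshold, with 0.29 ± 0.063 (SE; 95% interval 0.13 to 0.44; limma adjusted p = 0.157), or 23.5% more counts. Syn2 differed by −0.23 ± 0.083 (−0.44 to −0.024; adjusted p = 0.304), Shank2 by 0.22 ± 0.064 (0.055 to 0.38; adjusted p = 0.245), Rims2 by 0.21 ± 0.063 (0.049 to 0.36; adjusted p = 0.251) and Snap25 by 0.19 ± 0.055 (0.052 to 0.32; adjusted p = 0.234). These 5 and Sv2b had an unadjusted p under 0.05 (limma), or 6 of 35 against 14.4% of all genes. For Snap25, Shank2, Rims2 and Nrxn3 both Arl13b-/- libraries were above both wild-type ones, and for Syn2 and Sv2b below. Groups of 2 did not overlap for 17 of 35 genes, 13 higher and 4 lower, against 47.5% of all genes. Among all genes whose groups did not overlap, 4182 were higher and 2581 lower.

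Several genes of central synaptic proteins were nearly level. Vamp2 differed by 0.017 (95% interval −0.12 to 0.15), Cplx2 by 0.009 (−0.12 to 0.13), Dnm1 by 0.008 (−0.11 to 0.13), Syp by 0.035 (−0.15 to 0.22) and Dlg4 by 0.058 (−0.075 to 0.19). For Syt1 the difference was 0.13 (−0.008 to 0.27), for Amph 0.14 (−0.011 to 0.30), for Nlgn2 0.11 (−0.013 to 0.24), for Nlgn1 −0.040 (−0.25 to 0.17), for Unc13b −0.089 (−0.23 to 0.048) and for Vamp1 −0.099 (−0.35 to 0.15). The interval lay within 0.5 of 0 for 33 of 35 genes, against 83.8% of all genes. The exceptions were Sv2b and Dlg2, which differed by −0.21 (−0.62 to 0.20). Syn1, Syp and Nlgn3 lie on the X chromosome, and their differences were 0.083, 0.035 and 0.058.

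**Figure D4:**
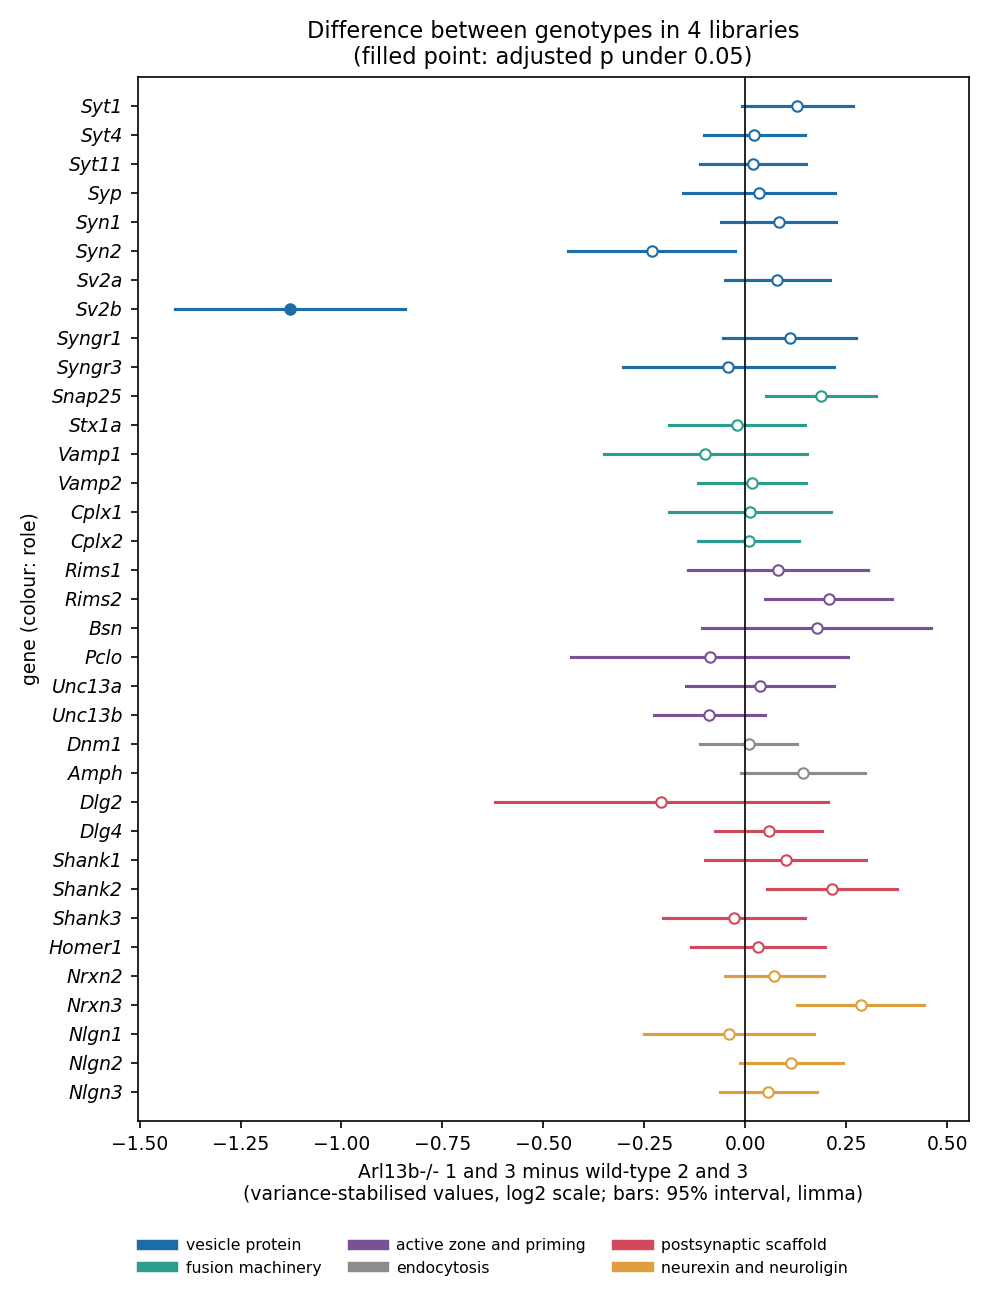
Fitted difference between Arl13b-/- 1 and 3 and wild-type 2 and 3 (variance-stabilised values, log2 scale) for each gene; points are estimates from limma, bars are 95% intervals, and a filled point has an adjusted p under 0.05. Sv2b, at −1.13, is the only filled point, and the other 34 lie between −0.23 and 0.29.

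The median over the 35 genes was 0.035, with 25 above 0 and 10 below. Over all genes the median was 0.023, with 8384 above 0 and 5865 below. By class, the median of the set was 0.021 for presynaptic genes, 0.045 for scaffold genes and 0.072 for neurexins and neuroligins. With pan-neuronal centring the split was 13 above and 22 below, so the count above 0 depends on the scaling.

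A further list of 98 synaptic genes was examined, of which 97 passed the filter. In the 4 libraries 0 of 97 passed (limma; smallest adjusted p = 0.0887), 24 had an unadjusted p under 0.05, 14 higher and 10 lower, against 14.4% of all genes, and the median difference was 0.042. The smallest p among higher values belonged to Rab3c, a vesicle GTPase (0.38 ± 0.057, SE), Slitrk1, an adhesion protein (0.30 ± 0.057), and Syt13, a synaptotagmin (0.45 ± 0.087). Among lower values it belonged to Dlg1, a scaffold (−0.30 ± 0.053), Cadps, a priming factor (−0.27 ± 0.051), and Sh3gl2, the endocytic protein endophilin (−0.41 ± 0.078). Over 6 libraries 0 of 97 passed and 0 had an unadjusted p under 0.05 (limma), and the median was 0.20. Of the 97, 58 were at least 1 higher in wild-type 1 and 72 in Arl13b-/- 2 than in the rest of their genotypes, and 52 in both, against 12.2%, 21.0% and 9.26% of all genes.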

How the data were processed

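The deposited table holds DESeq2-type variance-stabilised values on a log2 scale, made by the authors per the file headers and the labels. The submitters' processing notes name mm9 as the build and, with no role or order, DESeq 1.16.1, Salmon 0.9.1, CASAVA, DESeq2 and STAR 2.6.0. Annotation and filters are not stated in these sources. Undoing the parametric transformation, fixed by the value of a count of 0, gave normalized counts, on which library values and folds are stated. The smallest step between low counts was taken as 1 read and gave the depth; 69.7% to 79.5% of values under 30 reads lay within 0.05 of a whole number, so no count test was run. Low counts are limited by that depth.

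Genes with a mean at least 1 above the lowest value (14249) were tested with limma 3.58.1 in R 4.3.3, two-sided, using a trend of variance on mean, and adjusted by Benjamini-Hochberg over all of them at 0.05. Differences on this scale understate changes of low genes. The same functions were tested on simulated data. No 2 libraries agreed within sampling noise. The members, lists, tests and the smaller comparison were chosen with earlier results of these data known. Genes given in every library are Snap25, Syt1, Syp, Dlg4, Nrxn3, Nlgn1 and, per role, the 2 with the smallest p in each comparison; other names were chosen after their values were seen, except the 3 per direction of the further list. A red blood cell marker, Ahsp, was not in the table, and zero values of single peripheral neuron markers are not reported here. Alternatives were filters, centring, quantile normalization, robust or trendless moderation, weights per library, blocking on replicate number, inverted counts with 1 added, and leaving out libraries.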

Additional observations from a re-analysis of the deposited data

How the results depend on the processing

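Over 6 libraries, leaving out each library in turn gave differences from −0.50 to 1.56 for Snap25, −0.46 to 1.11 for Syt1, −0.57 to 1.13 for Syp, −0.49 to 1.30 for Syn1, −0.13 to 1.54 for Cplx2, −0.43 to 1.11 for Amph, −0.31 to 1.02 for Dlg4, −0.16 to 1.24 for Shank2, −0.67 to 0.12 for Pclo, −0.41 to 0.31 for Nrxn3, −0.58 to 0.78 for Nlgn1 and −0.033 to 0.57 for Nlgn2. Every lowest value but those of Pclo and Nrxn3 came without Arl13b-/- 2. Signs also turned with pan-neuronal centring (Nlgn1 −0.14, Nlgn2 −0.021), library weights (Syp −0.0088, Nrxn3 0.33, Nlgn1 −0.043, Pclo 0.14) and the 4 libraries (Nrxn3 0.29, Nlgn1 −0.040), where 1 of the 35 genes passed rather than 0. Over all genes 0 passed, against 3 with no filter, 214 with library weights and 4 without wild-type 1.

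In the 4 libraries, 0 of 35 genes passed with no filter or no trend, and 0 to 2 when a library was left out: Bsn joined Sv2b without Arl13b-/- 1. Over all genes 36 passed (10 higher, 26 lower), against 1 with no filter, 59 with quantile normalization, 147 with pan-neuronal centring (22 higher, 125 lower), 7 without the trend, 98 with robust moderation, and 6 to 725 when a library was left out. Those fits set 1 library against 2, and the lone library is assumed to vary like the others. Quantile normalization gave medians of −0.0065 for presynaptic and 0.025 for neurexin and neuroligin genes, and −0.027 for Dnm1; median centring gave −0.0069 for Dnm1. Pan-neuronal centring gave medians of −0.039 for the set, −0.053 for presynaptic, −0.030 for scaffold and −0.0026 for neurexin and neuroligin genes, and −0.039 for Syp, −0.017 for Dlg4 and −0.066 for Dnm1. Leaving out a library gave medians of 0.020 to 0.064 for the set, 0.014 to 0.049 for presynaptic and 0.049 to 0.11 for neurexin and neuroligin genes, and −0.11 to 0.027 for Nlgn1, −0.0081 to 0.024 for Dnm1 and −0.057 to 0.13 for Syp. Pan-neuronal centring, added after the data were seen for the counts in single libraries, gave 6 and 12 genes rather than 27 and 28. The share of all genes was not computed for those counts. The cause was not tested for any of these.

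A replicate block over 6 libraries passed 0 of 35 genes with the same median of 0.36. Deviations of same-numbered libraries from the means of their genotypes correlated at −0.71, −0.71 and 0.62. Those means include wild-type 1 and Arl13b-/- 2, which stood apart, so these values cannot show whether the numbers pair the libraries. No paired analysis was possible for the 4 libraries because the groups share fewer than 2 numbers. Of 204 values for single genes over 6 libraries under alternatives, 183 kept their sign and side of the threshold, and 177 of 191 did in the 4.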

Other observations

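Values outside the set, chosen after they were seen, showed the same 2 libraries parting in both directions among the further synaptic genes. Sncb, beta-synuclein, had 2044, 97.8 and 144 normalized counts across wild-type 1 to 3 and 96.8, 14918 and 107 across Arl13b-/- 1 to 3. Dlgap1, a scaffold bound by PSD-95, had 2660, 73.1 and 185, and 168, 9975 and 70.1. Both were high in wild-type 1 and Arl13b-/- 2. Sncg, gamma-synuclein, had 198, 470 and 393, and 369, 0 and 418. Homer3, a relative of Homer1, had 1165, 2532 and 2476, and 2537, 758 and 2562. Both were lowest in Arl13b-/- 2 and lower in wild-type 1 than in the other 4 libraries. Cplx3, a complexin, had 8.03, 37.7 and 39.3, and 43.7, 692 and 57.2, and was 1 of 3 genes among the 97 whose 3 libraries per genotype did not overlap, against 8.26% of all genes.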
